A study of Mus musculus with 33 samples.

Results

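Gdf9, Bmp15, Bmp6, Fgf8 and Kit were examined in single germinal vesicle oocytes, the growing and fully grown oocytes of the ovary whose nucleus is still intact. The 5 genes were taken by their symbols from a table of 35321 genes, and all 5 were found there and detected in each of 33 oocytes. The oocytes came from 3-week-old C57BL6/Babr females after collagenase digestion of the ovaries, and each library held the RNA of 1 oocyte. Of these, 10 oocytes were Nlrp5 +/+, 16 were Nlrp5 +/- and 7 were Nlrp5 -/-. The mutation is a CRISPR deletion of 5 bp that creates a premature stop codon in Nlrp5, which encodes NALP5 (also called MATER), a protein of the subcortical maternal complex. The deletion was made in zygotes and the mutant females were bred from the edited mice, so it was not limited to the oocyte. The Nlrp5 -/- and Nlrp5 +/- females were littermates while most Nlrp5 +/+ females came from the originating colony.

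Within each genotype the oocytes were divided by the state of the chromatin around the nucleolus. In NSN (non-surrounded nucleolus) oocytes transcription is still active, and in SN (surrounded nucleolus) oocytes, the later state, it has largely ceased. The sample labels do not give this stage, and it was taken from the bar over the study's staging heatmap, which itself was drawn from the transcripts of these oocytes. On that basis 4 Nlrp5 +/+, 9 Nlrp5 +/- and 4 Nlrp5 -/- oocytes were NSN, and 6, 7 and 2 were SN. Oocyte 15 (Nlrp5 -/-) had no stage. None of the 5 genes was among the 105 NSN and 59 SN marker genes behind that heatmap. The labels do not name the mouse of an oocyte, so the differences below have no replicate check beyond the spread between single oocytes and no p-value was computed.

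GDF9 and BMP15 are secreted by the oocyte and act on the surrounding cumulus and granulosa cells, where they drive proliferation, cumulus expansion and metabolic support of the oocyte. Both belong to the TGF-beta superfamily, as does BMP6, another ligand made by oocytes. FGF8 is a fibroblast growth factor of the oocyte that acts with the BMP signals on cumulus glycolysis. KIT is the receptor tyrosine kinase on the oocyte surface for KIT ligand from granulosa cells, and its signal through PI3K and AKT restrains FOXO3 and supports oocyte growth. The 4 ligands therefore carry signals outwards from the oocyte and KIT receives one from the follicle.

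Sequencing depth ranged from 4223595 to 15573360 counts on genes per oocyte, with a median of 7724335. All 10 oocyte marker genes, among them Zp2 and Zp3 of the zona pellucida, were detected in each oocyte. The targeted gene Nlrp5 held 10114 to 29131 normalized counts in Nlrp5 +/+, 5062 to 13472 in Nlrp5 +/- and 1362 to 2556 in Nlrp5 -/- oocytes, so that the mutant oocytes were the lowest and the other genotypes overlapped. The summed level of 16 granulosa cell markers lay between 285 and 740 counts per 1000000 (CPM) in the staged oocytes and reached 1587 in oocyte 15. The part of follicle cell RNA in the results below was not tested. Each of the 10 first index sequences of the libraries occurred with 1 genotype, so any effect that goes with the first index cannot be told apart from genotype. The labels do not say what the first index marks.

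In the GRCm38 coordinates of the count table Gdf9 (ENSMUSG00000018238) lies on the plus strand at chr11:53431023-53437904. Bmp15 (ENSMUSG00000023279) lies on the minus strand of the X chromosome at chrX:6314107-6320721, Bmp6 (ENSMUSG00000039004) on the plus strand at chr13:38345107-38500302, Fgf8 (ENSMUSG00000025219) on the minus strand at chr19:45736798-45742915 and Kit (ENSMUSG00000005672) on the plus strand at chr5:75574916-75656722. The 3′ end of Bmp6 overlaps Txndc5 on the other strand by 224 bases, and 4930579J19Rik lies within Bmp6 on the other strand. The library chemistry does not keep the strand, so reads from these overlaps cannot be told apart. Txndc5 held a median of 3516 normalized counts against 597 for Bmp6, while 4930579J19Rik held 11 reads over all oocytes.

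RefSeq (GRCm38.p6) gave the region from 250 bases before to 50 bases after the start for 3 of the 5 genes, Bmp15, Bmp6 and Kit. The windows of Bmp15 and Bmp6 are printed because these BMP ligands of the same cell differ most in level and in base composition. Capitals mark the E-box CANNTG, the homeobox motifs TAATTA and TAATTG, to which oocyte factors such as NOBOX are known to bind, and TATAAA, each searched on both strands.
Bmp15, minus strand, chrX:6320675-6320974: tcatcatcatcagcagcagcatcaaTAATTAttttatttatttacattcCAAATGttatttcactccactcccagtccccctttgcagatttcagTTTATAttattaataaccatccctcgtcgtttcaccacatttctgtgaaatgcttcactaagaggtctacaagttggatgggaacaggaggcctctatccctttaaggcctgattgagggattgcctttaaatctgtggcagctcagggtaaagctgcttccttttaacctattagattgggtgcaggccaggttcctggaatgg
Bmp6, plus strand, chr13:38345466-38345765: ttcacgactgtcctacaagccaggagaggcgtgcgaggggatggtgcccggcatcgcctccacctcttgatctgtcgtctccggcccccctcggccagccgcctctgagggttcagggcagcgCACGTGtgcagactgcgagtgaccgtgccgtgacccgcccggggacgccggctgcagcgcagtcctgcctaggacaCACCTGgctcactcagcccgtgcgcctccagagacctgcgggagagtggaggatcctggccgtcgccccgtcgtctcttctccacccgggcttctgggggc
The Bmp15 window was 41.7% G and C and held 2 CG pairs, whereas that of Bmp6 was 69.3% G and C with 27 CG pairs and that of Kit 69% with 20. The median over 32851 windows was 52.7% with 7 CG pairs. Bmp15 held TAATTA 225 bases before the start, which 5.29% of all windows hold, an E-box 201 bases before it and, on the opposite strand, TATAAA 155 bases before it. TATAAA was found in 13.6% and an E-box in 72.3% of all windows. Bmp6 held E-boxes 127 and 51 bases before its RefSeq start and no other motif, Kit held 1 E-box after its start, and TAATTG (8% of all windows) was in none of the 3. The whole Bmp6 window lies within the gene interval of the count table, so its RefSeq start is downstream of the start of that interval. These matches describe the letters of the windows only.

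Gdf9 and Bmp15 were among the most abundant transcripts of the oocyte, and the other 3 genes were far lower. To compare genes, counts were expressed as RPKM, reads per kilobase of the canonical transcript per 1000000 counts. Gdf9 had a median of 4176 RPKM, the highest of 26855 genes with any count, and ranged from 2307 to 5993 over the 33 oocytes. Bmp15 ranked 22 with a median of 1244 (836 to 1772). Kit ranked 619 with 117.6 (74.4 to 156.4), Fgf8 2167 with 37.9 (13.95 to 81.6) and Bmp6 3505 with 21.6 (15.9 to 35.9). Gdf9 alone took 0.749% of all counts in the median oocyte and Bmp15 0.381%.

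The order of the 5 levels was nearly the same in each oocyte. Gdf9 exceeded Bmp15 in 33 of 33 oocytes, by a median ratio of 3.31, and Bmp15 exceeded Kit in 33 of 33 by 10.6. Kit was above Fgf8 in 32 of 33 and Fgf8 above Bmp6 in 28 of 33, where the median ratio was 1.81 and the ranges overlapped. With the length of all exons joined in place of the canonical transcript, the median of Kit was 65.4 RPKM and it stayed above Fgf8 in 30 of 33 oocytes.

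**Figure D1:**
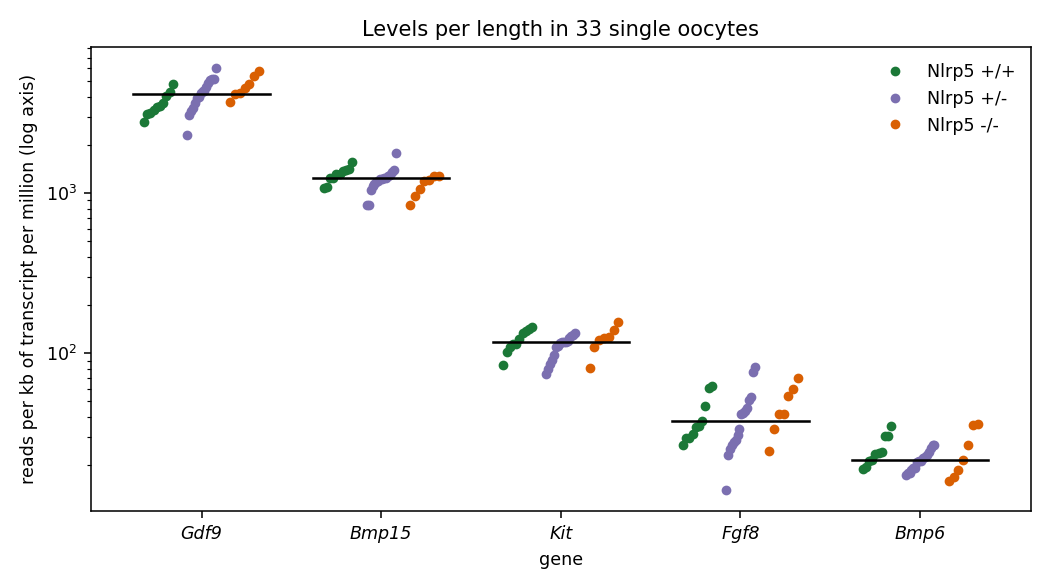
Levels in RPKM, reads per kilobase of transcript per 1000000 counts (log axis), for the 5 genes in 33 single oocytes, with 1 point per oocyte coloured by Nlrp5 genotype and a black line at the median of all oocytes. Gdf9 (median 4176) and Bmp15 (1244) stand apart from Kit (117.6), while the points of Fgf8 (37.9) and Bmp6 (21.6) overlap.

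The genes also differed in how evenly they were expressed from cell to cell. The coefficient of variation of normalized counts over the 33 oocytes was 17.4% for Kit, 17.5% for Bmp15, 20.9% for Gdf9, 24.4% for Bmp6 and 38.2% for Fgf8. Among 8436 genes with a mean of at least 100 normalized counts, Kit and Bmp15 were in the lowest 2.87% and 3.03% and Fgf8 was above 73.5%. The lowest count behind a Fgf8 value was 116 reads and the lowest behind a Bmp6 value was 279, so their counting error is larger than that of Gdf9, whose lowest count was 23707.

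The genotype comparison asks whether loss of NALP5 altered the transcripts of these signalling genes. No difference between genotypes reached 2-fold for any of the 5 genes at either stage. Among NSN oocytes Gdf9 was higher in Nlrp5 -/- than in Nlrp5 +/+ oocytes with no overlap, and this was the only one of 45 values, 5 genes in 9 comparisons, in which the groups did not overlap. Bmp15 differed little, Kit differed little between Nlrp5 -/- and Nlrp5 +/+ but was lower in NSN Nlrp5 +/- oocytes, and Bmp6 and Fgf8 varied widely between oocytes of a group. The 4 NSN wild type oocytes are listed below in the order 70, 78, 79 and 87, and the 4 NSN mutant ones in the order 13, 14, 29 and 30. Values are read counts divided by a size factor per oocyte (the median of ratios over all 33 oocytes), and a log2 difference is that of the group means after adding 1.

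Gdf9 held 41167, 48054, 42492 and 54398 normalized counts in wild type NSN cells. It held 66740, 69121, 58811 and 61322 in mutant NSN cells. The lowest mutant oocyte was thus 4413 counts above the highest wild type oocyte. The means were 46528 ± 6036 (SD over oocytes, n = 4) and 63999 ± 4755 (n = 4), a 1.38-fold difference or 0.46 on the log2 scale. Leaving out each oocyte in turn gave 0.41 to 0.54, and the lowest value under any other setting tried was 0.34. Of 13833 genes tested in this comparison 3.96% were higher without overlap, and 67.8% of genes had a smaller difference than Gdf9. Within the 2 groups, the summed counts of 228578 and 266145 corresponded to 6187 CPM (95% exact Poisson interval 6161 to 6212) and 8626 CPM (8593 to 8659), intervals that cover counting error only.

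Markers of follicle and stromal cells were also higher in these NSN Nlrp5 -/- oocytes. Of 16 granulosa cell markers 11 had a mean of at least 10, and 6 of these were at least 2-fold higher and 0 lower than in Nlrp5 +/+, where 4.93% of all genes were at least 2-fold higher. The same held for 3 of 5 measured theca and interstitial markers and for 3 of 4 stroma, vessel and blood markers. Markers near 0 in the wild type oocytes pass that filter only where the mutant oocytes are high, so these counts are a description. The summed theca and interstitial level was 27.4 to 258 CPM in the mutant and 12.9 to 23.3 in the wild type oocytes, and the stromal level 81.7 to 99.6 and 46.1 to 75.4, both without overlap. The stromal sum is mostly Pecam1, which each of these oocytes expressed (512 to 687 normalized counts in the mutant and 339 to 493 in the wild type oocytes). Dcn (11.05 to 35.6 and 0 to 14.8) and Col3a1 (5.54 to 58.2 and 0 to 43.7) overlapped, and Pdgfra and Ptprc reached 3.46 and 0 in the mutant but 16.03 and 10.4 in the wild type oocytes. The defining granulosa markers Foxl2 and Amh were at 0 in all 4 wild type oocytes, and in 2 and 1 of the 4 mutant ones, where they reached 27.0 and 9.23 normalized counts. Without oocytes 13 and 14, which had the highest granulosa marker sums of the 4, the Gdf9 difference was 0.37 on the log2 scale. The remaining oocytes 29 and 30 still had theca and interstitial sums (27.4 and 35.5 CPM) and stromal sums (99.6 and 94.7) above each wild type oocyte. This value thus does not set markers of other cells aside.

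The heterozygous oocytes lay on both sides of that gap. Gdf9 in 9 NSN Nlrp5 +/- oocytes ranged from 45312 over a median of 60717 to 82064, and 6 of them were above each NSN Nlrp5 +/+ oocyte. Their mean was 60444 ± 11757 (SD, n = 9), 0.38 above Nlrp5 +/+ on the log2 scale, and Nlrp5 -/- was 0.08 above Nlrp5 +/-. Of 6 measured theca and interstitial markers 4 were at least 2-fold higher and 1 lower than in Nlrp5 +/+, of 7 granulosa markers 2 were higher and of 4 stromal markers 2, where 2.03% of all genes were higher. Markers near 0 in the wild type oocytes pass the filter only where the Nlrp5 +/- oocytes are high, so these counts too are a description. The theca and interstitial sum was 20.01 to 326 CPM in the Nlrp5 +/- oocytes (median 25.1), and the granulosa sum was 311 to 435. The comparisons of Nlrp5 -/- and of Nlrp5 +/- with Nlrp5 +/+ share the same 4 wild type oocytes.

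Among SN oocytes the Gdf9 values overlapped. In 6 Nlrp5 +/+ oocytes it ranged from 39246 over a median of 50477 to 70677, and 7 Nlrp5 +/- oocytes from 32836 over 56021 to 74760. The 2 Nlrp5 -/- oocytes, 7 and 31, held 80077 and 57557, and oocyte 7 was above each other SN oocyte. The difference between Nlrp5 -/- and Nlrp5 +/+ was 0.39 on the log2 scale, and 0.13 without oocyte 7. Here too some markers of other cells were higher in the mutant than in the wild type oocytes. Of 10 measured granulosa markers 4, of 4 theca and interstitial markers 3 and of 4 stromal markers 2 were at least 2-fold higher and 0 lower, where 4.07% of all genes were higher. Markers near 0 in the wild type oocytes pass the filter only through the other group, so the marker counts of this paragraph are a description. The theca and interstitial sum was 20.7 and 31.5 CPM in the mutant oocytes and 5.27 to 11.4 in the wild type ones, without overlap, while the granulosa sum was 355 and 446 against 337 to 418. In SN Nlrp5 +/- oocytes these sums were 10.9 to 63.7 and 312 to 418. There 4 of 5 theca and interstitial, 1 of 8 granulosa and 2 of 4 stromal markers were at least 2-fold above Nlrp5 +/+, against 1.14% of all genes. Between Nlrp5 -/- and Nlrp5 +/-, 0 of 6 theca and interstitial markers were higher and 2 lower in Nlrp5 -/-. Oocyte 15, with no stage, held 52116 normalized counts of Gdf9.

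Bmp15 was lower, by less than the spread between oocytes, in mutant than in wild type oocytes. The wild type NSN cells held 29647, 29376, 28460 and 28360 normalized counts, a spread of 647 (SD, n = 4) around 28961. The mutant NSN cells held 30547, 21031, 28197 and 24383, with a mean of 26040 ± 4195 (SD, n = 4). Of these, 3 were below all wild type oocytes and 1 was above them, and the log2 difference was -0.15, which was -0.24 without oocyte 13 and -0.064 without oocyte 14. In the NSN Nlrp5 +/- oocytes Bmp15 ranged from 18600 over 27204 to 32665, a log2 difference of -0.13 from Nlrp5 +/+.

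In SN oocytes Bmp15 ranged from 26276 over 33343 to 38000 in Nlrp5 +/+ and from 26969 over 30693 to 43043 in Nlrp5 +/-. The Nlrp5 -/- oocytes 7 and 31 held 28781 and 30246, within the wild type range. The log2 differences from Nlrp5 +/+ were -0.12 for Nlrp5 -/- and -0.03 for Nlrp5 +/-. The highest Bmp15 value of all 33 oocytes, 43043, was in oocyte 55, which also held the lowest Gdf9 value.

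Bmp6 in Nlrp5 -/- oocytes was below Nlrp5 +/+ in the NSN and above it in the SN comparison, while in Nlrp5 +/- oocytes it was slightly lower at both stages, all with overlap. It held 814, 668, 634 and 541 normalized counts in wild type NSN cells. Mutant NSN cells held 749, 477, 440 and 455, so that 3 were below and 1 within the wild type range. The log2 difference was -0.32 in NSN oocytes (-0.54 without oocyte 13, -0.21 without oocyte 70) and 0.16 in SN oocytes, where the Nlrp5 -/- oocytes 7 and 31 held 1000 and 597 and the Nlrp5 +/+ oocytes ranged from 536 to 1029. Without oocyte 7 the SN value was -0.26. Nlrp5 +/- oocytes ranged from 474 to 746 (NSN) and 507 to 743 (SN), -0.21 and -0.19 from Nlrp5 +/+. Oocyte 15 held 1011.

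Fgf8 was the most variable of the 5 in each comparison. Wild type NSN cells held 346, 295, 324 and 530 normalized counts, and mutant NSN cells held 402, 296, 516 and 553. The groups overlapped, with a log2 difference of 0.24 that was 0.46 without oocyte 87 and 0.11 without oocyte 30. The 9 NSN Nlrp5 +/- oocytes spanned both, from 132 over 320 to 767. In SN oocytes it ranged from 262 to 620 in Nlrp5 +/+ and from 259 to 493 in Nlrp5 +/-, and it was 664 and 393 in the Nlrp5 -/- oocytes 7 and 31. The SN log2 difference of Nlrp5 -/- was 0.49 from Nlrp5 +/+ and 0.51 from Nlrp5 +/-, but 0.066 and 0.083 without oocyte 7.

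Kit, the receptor, had the smallest differences of the 5 genes between Nlrp5 -/- and Nlrp5 +/+ oocytes at both stages. It held 5358, 4430, 5289 and 5301 normalized counts in wild type NSN cells and 5727, 4560, 6366 and 4970 in mutant ones. The means of 5094 ± 444 and 5406 ± 802 (SD, n = 4 each) differed by 0.09 on the log2 scale. The 9 NSN Nlrp5 +/- oocytes were lower, from 2992 over 4163 to 5213, and 5 of them were below each wild type oocyte. Their log2 difference was -0.31 from Nlrp5 +/+, and Nlrp5 -/- oocytes were 0.39 above them, both with overlap. In SN oocytes the 3 genotypes ranged from 3662 to 6178, 3634 to 5721 and 4447 to 5009 and differed by at most 0.04.

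For these genotype comparisons, in which 0 of the 5 genes passed 2-fold, the share of all genes at least 2-fold apart gives the background. It was 8.14% of 13833 genes for Nlrp5 -/- against Nlrp5 +/+ in NSN oocytes and 10.1% of 13351 in SN oocytes. For Nlrp5 +/- against Nlrp5 +/+ it was 3.12% and 1.95%, and for Nlrp5 -/- against Nlrp5 +/- it was 6.5% and 8.91%. All 5 genes had a mean of at least 100 counts, and above that level the share was only 0.0612% to 5.4% over the 9 comparisons. The share of genes whose groups did not overlap, in either direction, was 7.1% (NSN) and 15.1% (SN) for Nlrp5 -/- against Nlrp5 +/+, 0.444% and 0.0827% for Nlrp5 +/- against Nlrp5 +/+, and 1.16% and 11.1% for Nlrp5 -/- against Nlrp5 +/-.

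**Figure D2:**
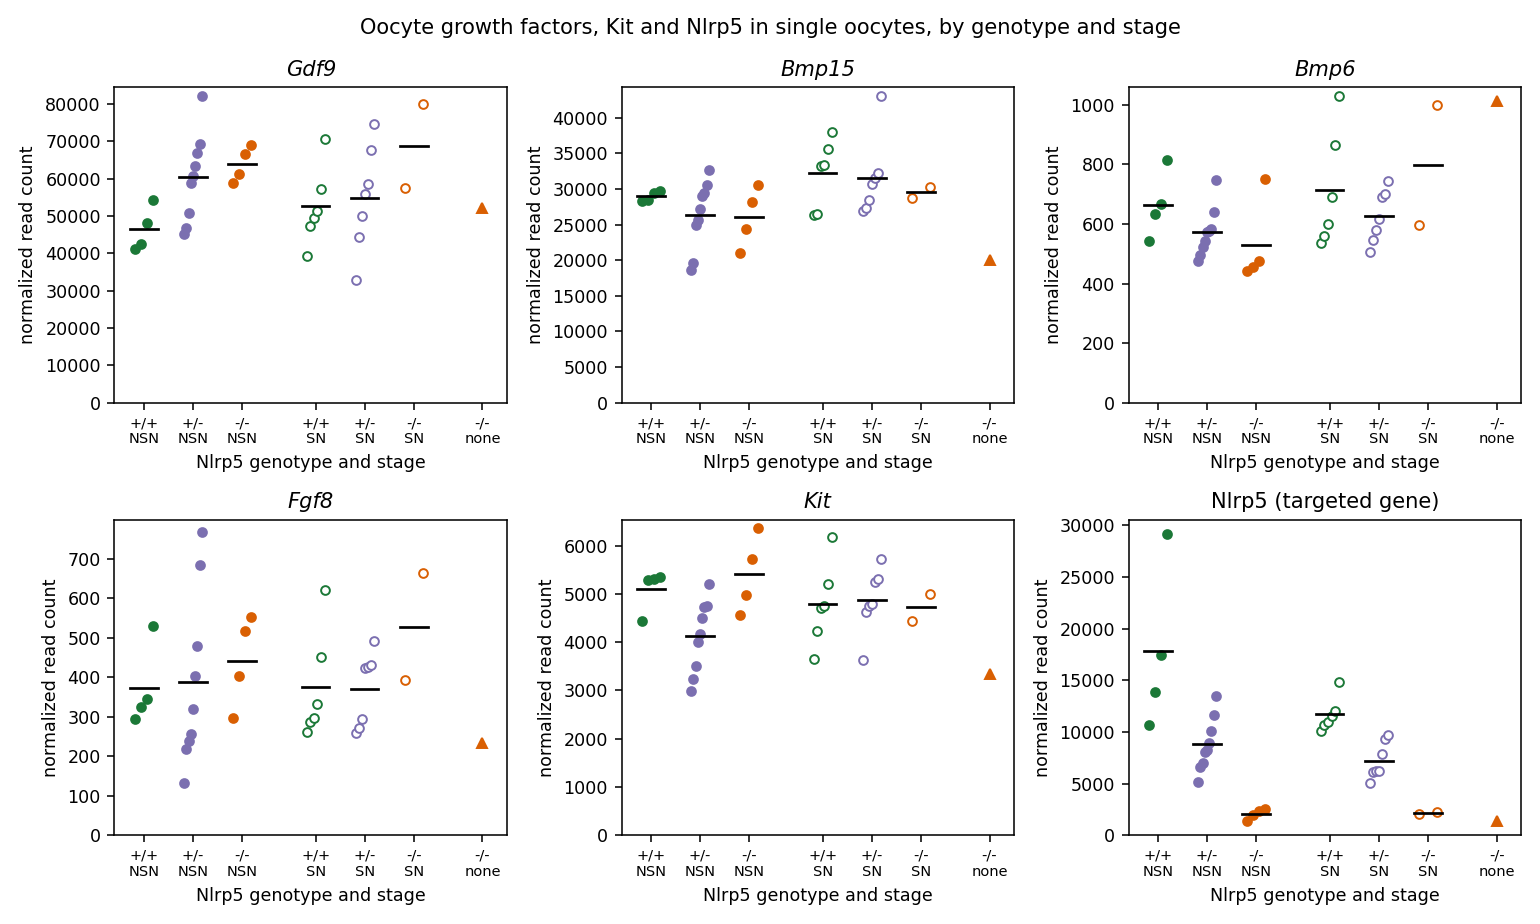
Normalized read counts of the 5 genes and of Nlrp5 in single oocytes by genotype and stage (filled, NSN; open, SN; triangle, oocyte 15 without a stage), with black lines at group means. The 4 NSN Nlrp5 -/- oocytes lie above the 4 NSN Nlrp5 +/+ oocytes for Gdf9, the other panels of the 5 genes overlap, and Nlrp5 itself falls from +/+ to -/-.

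The passage from NSN to SN, during which transcription ceases, was compared within each genotype. None of the 5 genes changed by 2-fold in any genotype, and SN and NSN oocytes overlapped for each gene in each genotype. The values are relative to the size factors, so a fall in RNA common to most genes would not show in them. Over all genes, 12.8% (Nlrp5 +/+), 9.23% (Nlrp5 +/-) and 14.8% (Nlrp5 -/-) were at least 2-fold apart between the stages, most of them lower in SN oocytes, and 9.8%, 1.34% and 20.2% had no overlap. Because the stage was read from these same transcriptomes, these shares describe the division and do not test it.

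Bmp15 was higher in SN than in NSN oocytes in each genotype, by 0.15, 0.25 and 0.18 on the log2 scale in Nlrp5 +/+, Nlrp5 +/- and Nlrp5 -/-. Each of these is below the SD of log2 values within the groups (0.18, 0.26 and 0.21). With oocytes 55 (SN) and 61 (NSN) exchanged between the stages, the value in Nlrp5 +/- was 0.10. Bmp15 stayed higher in SN oocytes under each leave-one-out setting and within each of the 6 first indices that held both stages, where the values ran from 0.02 to 0.66.

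Gdf9, Kit and Fgf8 had no direction common to the 3 genotypes. Gdf9 differed by 0.18, -0.14 and 0.10 in the 3 genotypes, and Kit by -0.09, 0.24 and -0.19. Within the 2 first indices of Nlrp5 +/- that held both stages Gdf9 was lower in SN oocytes by more, at -0.96 and -0.53, and Kit was 0.54 and 0.093. Within the 3 of Nlrp5 +/+ Gdf9 was 0.29, -0.17 and 0.38 and Kit -0.11, -0.24 and 0.018, and within the 1 of Nlrp5 -/- they were -0.062 and -0.18. Fgf8 differed by 0.01, -0.07 and 0.26, and leaving out single oocytes turned the sign in each genotype, the last value being -0.17 without oocyte 7. Bmp6 was higher in SN oocytes of each genotype, by 0.10, 0.13 and 0.59. The last value, the largest of all 45, compares 1000 and 597 in oocytes 7 and 31 with 440 to 749 in 4 NSN oocytes, and was 0.17 without oocyte 7. In Nlrp5 +/+, Bmp6 was lower in SN oocytes within 1 of 3 first indices.

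**Figure D3:**
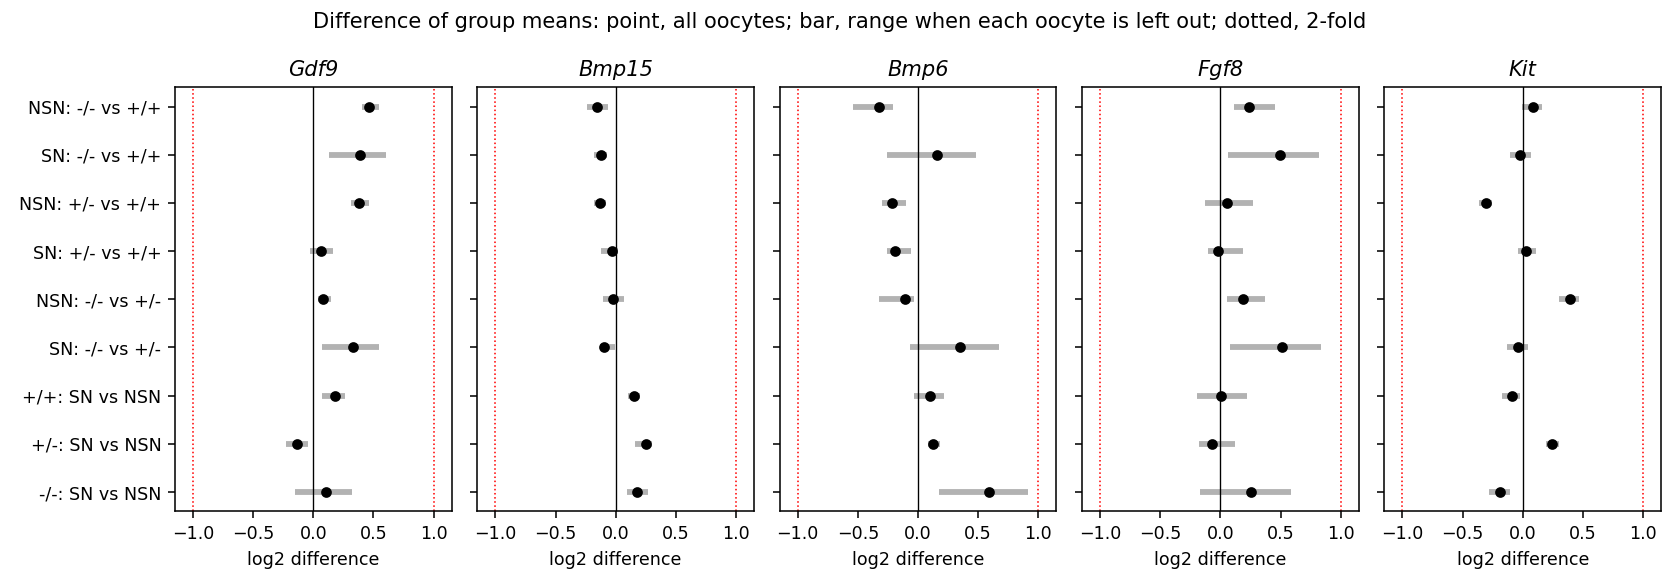
Log2 difference of group means of each gene in the 6 genotype and 3 stage comparisons. Points use all oocytes of both groups, grey bars span the values when each oocyte is left out in turn, and dotted lines mark 2-fold. All 45 points lie between -0.32 and 0.59, and the bars of Bmp6 and Fgf8 that involve the 2 SN Nlrp5 -/- oocytes are the widest.

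A staging score was also computed as the mean log2 value of the NSN markers less that of the SN markers. It was -3.51 to -1.99 in oocytes barred NSN and -5.27 to -3.61 in those barred SN. Over 33 oocytes Bmp15 fell as the score rose, with a Pearson r of -0.54 and a Spearman rho of -0.58, and the sign was the same within Nlrp5 +/+ (r = -0.28, 10 oocytes), Nlrp5 +/- (-0.52, 16 oocytes) and Nlrp5 -/- (-0.67, 7 oocytes). The pooled r was 0.18 for Gdf9, -0.02 for Fgf8, -0.14 for Kit and -0.31 for Bmp6. For Gdf9 and Kit it joins opposite signs, since Gdf9 gave -0.46 in Nlrp5 +/+ and 0.31 in Nlrp5 +/-, and Kit 0.39 and -0.40. Fgf8 gave -0.52 in the 7 Nlrp5 -/- oocytes. Bmp15 also had an r of -0.22 with sequencing depth and -0.42 with the granulosa marker level, where rho was -0.20. Within Nlrp5 +/+, Nlrp5 +/- and Nlrp5 -/- the r was -0.60, -0.25 and -0.58 with depth and -0.39, -0.058 and -0.77 with the granulosa level. Within Nlrp5 +/+ both were larger in size than the r with the score, and within Nlrp5 -/- that with the granulosa level was. By rank the order in Nlrp5 -/- was the reverse, with a rho of -0.36 with the granulosa level and -0.64 with the score. These correlations are descriptions over single oocytes, whose mice are not named and whose values were scaled together.

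GDF9 and BMP15 act together, as homodimers and as a heterodimer, so their transcripts were also set against each other within the oocyte, where no scaling is needed. The number of Bmp15 counts per Gdf9 count ranged from 0.238 to 1.31 with a median of 0.516. In the 4 NSN Nlrp5 +/+ oocytes the ratio was 0.521 to 0.720, and in the 4 NSN Nlrp5 -/- oocytes it was lower, from 0.304 to 0.479, with no overlap. The medians were 0.641 and 0.428, and the difference of -0.21 ranged from -0.24 to -0.18 when each oocyte was left out. This is the same contrast in which Gdf9 alone did not overlap. The NSN Nlrp5 +/- oocytes ranged from 0.238 to 0.628 and overlapped both.

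In SN oocytes the ratio was 0.458 to 0.848 in Nlrp5 +/+, 0.398 to 1.31 in Nlrp5 +/- and 0.359 and 0.525 in the 2 Nlrp5 -/- oocytes, with overlap throughout. The value of 1.31 was that of oocyte 55, and the next highest in its group was 0.692. Oocyte 15 had a ratio of 0.384. Across all 33 oocytes Gdf9 and Bmp15 did not rise together, with a Spearman rho of -0.31.

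**Figure D4:**
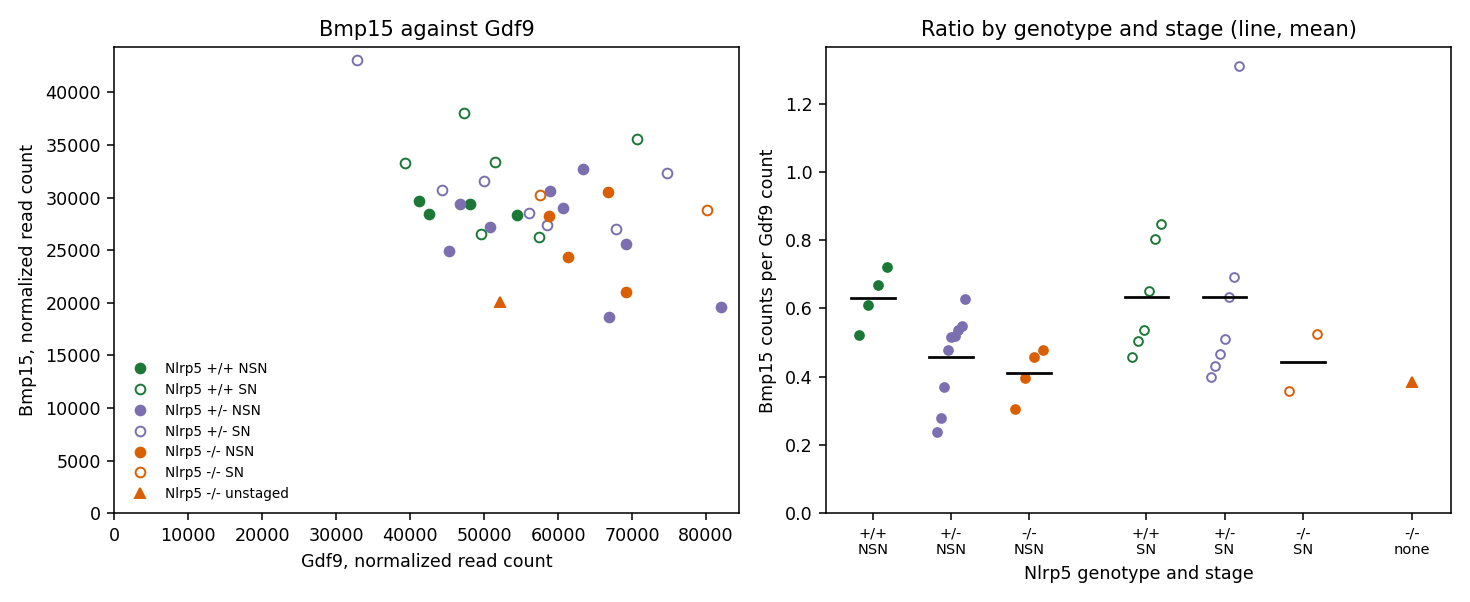
Left, normalized counts of Bmp15 against Gdf9 in 33 oocytes by genotype and stage. Right, Bmp15 counts per Gdf9 count in the same oocytes, with black lines at group means. The 4 NSN Nlrp5 -/- oocytes (0.304 to 0.479) lie below the 4 NSN Nlrp5 +/+ oocytes (0.521 to 0.720), and oocyte 55 lies alone at 1.31.

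The genes whose values ranked most like each of the 5 over 33 oocytes were drawn from 8436 genes with a mean of at least 100 normalized counts. For Gdf9 they were Pld2 (Spearman rho 0.80), a phospholipase D, Cryl1 (0.79) and Sap25 (0.78). For Bmp15 they were Rnf141 (0.83), Nectin3 (0.79), a cell adhesion protein, and AU015836 (0.78). For Bmp6 they were Ino80 (0.76), the ATPase of a chromatin remodelling complex, Atp2a2 (0.74), a calcium pump of the endoplasmic reticulum, and Syne2 (0.73), a nuclear envelope protein. For Fgf8 they were 9430015G10Rik (0.79), Tomm34 (0.78) and Rnaseh1 (0.78), and for Kit Fchsd2 (0.76), Cog3 (0.75), a Golgi protein, and Tnpo1 (0.75), a nuclear import receptor. None of the 5 genes was among the 3 most like another of them, and their rho with each other lay between -0.37 and 0.38.

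Few other ligands of the same families were measurable. Of 30 other BMP, GDF, activin and TGF-beta ligands, 7 had a mean of at least 10 normalized counts and 4 of at least 100. These were Tgfb2 (mean 4639), Bmp5 (1185), Tgfb3 (566) and Inha (162). The mean of Inha rests on oocyte 15, which held 2711 and is the oocyte with the highest granulosa marker sum, and without it the mean was 82.1, Inhbb fell from 13.4 to 4.23, and 6 and 3 ligands reached the 2 levels. Per length, Tgfb2 had a median of 113.5 RPKM and Bmp5 42.2, both above Bmp6. Of 21 other FGF ligands 6 reached a mean of 10 and only Fgf9 (154) reached 100, followed by Fgf7 (82.5) and Fgf1 (77.1), all below the 391 of Fgf8.

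Inha, the inhibin alpha subunit and a granulosa cell marker, was higher in Nlrp5 -/- oocytes. It ranged from 23.1 to 906 normalized counts in NSN Nlrp5 -/- and from 0 to 10.1 in NSN Nlrp5 +/+ oocytes. The granulosa marker sum ranged from 300 to 740 and from 285 to 476 CPM in these groups. Inhba and Inhbb, the activin subunits, are granulosa products as well, and their means were 37.5 and 25.0 in the mutant against 16.6 and 0 in the wild type oocytes. Gdf15 had means of 18.8 and 3.72. Inha, Inhbb and Gdf15 were below a mean of 10 in the wild type oocytes and passed the filter on low counts only through the mutant group, so no share of ligands is given.

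Bmp5 separated the stages in wild type oocytes. It ranged from 1422 to 1883 normalized counts in SN and from 525 to 957 in NSN Nlrp5 +/+ oocytes, a log2 difference of 1.07. In Nlrp5 +/- and Nlrp5 -/- it was 0.67 and 0.33, with overlap.

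The oocytes also held transcripts of receptors, SMAD proteins and antagonists of the pathway. Of 13 BMP, GDF and activin receptors 7 had a mean of at least 100, led by Bmpr1b (1691) and Bmpr2 (758), the receptors through which BMP15 is known to signal. Smad3 (1702) and Smad2 (980) were the most abundant of the 4 SMAD genes above 100 (3 without oocyte 15). Smad5, a SMAD of the BMP branch, was lower in SN than in NSN Nlrp5 +/+ oocytes, at 17.2 to 71.7 against 114 to 238. The log2 difference was -1.69 there, and -0.64 and -0.74 in Nlrp5 +/- and Nlrp5 -/-, short of 2-fold. It was higher in Nlrp5 -/- than in Nlrp5 +/+ SN oocytes, at 86.4 and 153, without overlap. Acvr2a, an activin receptor, was lower in the 2 SN Nlrp5 -/- oocytes (27.5 and 33.7) than in the SN Nlrp5 +/+ oocytes (52.7 to 149.5). Acvr1, a receptor gene at a lower level (mean 31.2), was lower in Nlrp5 -/- than in Nlrp5 +/+ oocytes at both stages, without overlap. It held 0 to 11.05 against 16.03 to 96.3 in NSN and 0 to 1.35 against 17.7 to 60.2 in SN oocytes. Of 9 receptors tested, 1 (NSN) and 2 (SN) were at least 2-fold lower and 0 higher. Over all genes 8.14% and 10.1% were at least 2-fold apart.

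Twsg1, which encodes the secreted BMP-binding protein twisted gastrulation, was lower in SN oocytes of all 3 genotypes. Its means were 57.2 against 385 in Nlrp5 +/+, 88.2 against 339 in Nlrp5 +/- and 102.6 against 376 in Nlrp5 -/-, log2 differences of -2.73, -1.93 and -1.86. The stages did not overlap in Nlrp5 +/+ and Nlrp5 -/-. Tgfbr1, a type I receptor of the TGF-beta branch used by GDF9, was at 137 in SN and 523 in NSN Nlrp5 +/+ oocytes, with overlap, a log2 difference of -1.92 against -0.80 and -0.73 in Nlrp5 +/- and Nlrp5 -/-. Of 8 proprotein convertases, which cleave the ligand precursors, Furin (762) and Mbtps1 (521) had means above 100 and neither passed 2-fold in any comparison.

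For Fgf8, Fgfr2 (439) and Fgfr1 (160) were the receptor genes above 100 among 8 FGF receptors and partners, and neither passed 2-fold in any comparison. For Kit, the granulosa ligand Kitl was low, at 20.2 to 244 normalized counts. All 19 genes of the list from KIT to PI3K, AKT and FOXO3 had a mean of at least 10, led by Pik3cd (4161), a catalytic subunit of PI3K, and Foxo3 (2734). In the NSN comparison of Nlrp5 -/- with Nlrp5 +/+ none of the 19 passed 2-fold and the median was 0.07, and in SN oocytes 1 did, Pik3r2, with a median of 0.07. Of the 29 genes from KIT to RAS and MAPK, 24 were tested in NSN and 23 in SN oocytes, and medians were 0.03 and 0.14. Of these 1 passed 2-fold at each stage. Stat5a was lower in SN Nlrp5 -/- than in SN Nlrp5 +/+ oocytes (means 13.3 and 51.4). Gab1 had NSN means of 19.7 and 3.80 with overlap, and it passed the filter only through the mutant group. The shares in both lists were below the 8.14% (NSN) and 10.1% (SN) of all genes that were at least 2-fold apart. Those all-gene shares include genes down to a mean of 10, whereas 17 of the 19 and 20 of the 29 genes had a mean of at least 100. Above that mean the all-gene share was 0.0612% to 5.4% over the 9 comparisons, so the lists are not shown to lie below a like background. Cbl, a ubiquitin ligase that acts on activated KIT, was lower in SN (115 to 165) than in NSN Nlrp5 +/+ oocytes (330 to 407), a log2 difference of -1.36. In Nlrp5 +/- and Nlrp5 -/- the difference was -0.80 and -0.61, short of 2-fold. Of 10 cumulus genes known as targets of GDF9 and BMP15, which the oocyte need not express, Hmgcs1 (3325) and Pfkp (126) had means above 100 and neither passed 2-fold.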

How the data were processed

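RNA of single germinal vesicle oocytes was amplified by the authors with a Smart-seq2-based method, made into libraries with Nextera XT and sequenced as paired ends. Trim Galore was used for trimming and HISAT2 for alignment, and read counts per gene were deposited as raw counts made in SeqMonk, unnormalized, per the file headers on GRCm38 (the methods name GRCm39). The authors left out libraries with fewer than 4000000 reads. Further deposited tables with the authors' own fold changes and p-values, and with read totals, were not used here. Of 35373 entries, 52 repeated symbols were dropped.

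Counts were divided by median-of-ratios size factors over 33 oocytes (Python, pandas 2.3.3, numpy 2.4.6). Log2 differences used group means and a pseudocount of 1. Shares over all genes used genes with a mean of at least 10 normalized counts in the oocytes compared, and lists used the same filter. TMM factors came from edgeR 4.0.16. No count model was fitted, because a genotype at a stage is 1 group of cells with no mouse named; the script was tested on simulated data. Transcript lengths were taken from GENCODE vM39.

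Genotypes came from the labels. Named genes were the 5 genes, the 3 genes most like each by Spearman rank and the 3 most abundant other ligands of each family. Genes of the pathway lists with a mean of at least 100 that were at least 2-fold apart in a comparison were also named. Others from the lists (among them the most abundant of a list, Acvr1, Gdf15, Inhba, Inhbb, Pik3r2, Gab1 and Stat5a) were named after their values were seen. The genes, lists and rules were chosen with earlier results of these data known. Alternatives were total-count and TMM scaling, other summaries, pseudocounts and filters, exchanged stages and left-out oocytes. Joined exon lengths and list levels without oocyte 15 were added after the data were seen.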

Additional observations from a re-analysis of the deposited data

Results flagged for a closer look

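The 5 genes and the ratio of Bmp15 to Gdf9 counts were examined in 5 groups of 4 to 9 oocytes, and in 4 of these 30 sets 1 oocyte lay far from the others by the gap to its nearest neighbour. Chance gives about 1 in 20 independent sets, but these sets share oocytes, and 2 of the 4 are oocyte 55 through the same Bmp15 count. In SN Nlrp5 +/- oocytes, oocyte 55 held 43043 normalized counts of Bmp15, against 32302 for the next and 26969 for the lowest, and its ratio of 1.31 Bmp15 counts per Gdf9 count stood apart from 0.692 for the next. Oocyte 55 is barred SN in the study's heatmap, and its staging score of -3.93 lies in the SN range (-5.27 to -3.61). In NSN Nlrp5 -/- oocytes, oocyte 13 held 749 normalized counts of Bmp6 and the other 3 held 440 to 477. In NSN Nlrp5 +/+ oocytes, oocyte 78 held 4430 normalized counts of Kit and the other 3 held 5289 to 5358.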

How the results depend on the processing

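The 45 differences were recomputed under 905 alternatives, of which 882 moved the value by less than the SD of log2 values within the groups. That SD was 0.15 to 0.73 and the largest of the 45 differences was 0.59, so this count does not show that a difference is stable. No value reached 2-fold under any alternative, the largest being 0.96. The sign held in 29 of 45 when each oocyte was left out and in 24 of 45 under all settings. Other scalings changed the sign of 4 of the 45 and moved a member's value by at most 0.12, and the median of all genes by at most 0.11. No paired analysis was possible because the labels name no mouse and give no replicate numbers shared between genotypes; the stages were compared within first indices instead.

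The SN Nlrp5 -/- group holds only oocytes 7 and 31, so each of its values rests on 1 oocyte when the other is left out. The range over left-out oocytes was -0.26 to 0.49 for Bmp6 against Nlrp5 +/+, -0.067 to 0.68 for Bmp6 and 0.083 to 0.84 for Fgf8 against Nlrp5 +/-, and for SN against NSN it was -0.15 to 0.32 for Gdf9 and 0.17 to 0.91 for Bmp6. Without oocytes 7, 13 and 14, Bmp6 was -0.26 and -0.067 in the SN comparisons with Nlrp5 +/+ and Nlrp5 +/-, and Fgf8 was 0.083 against Nlrp5 +/- and -0.44 for SN against NSN in Nlrp5 -/-. With medians in place of means Fgf8 differed by 0.42 between SN Nlrp5 +/- and Nlrp5 +/+, and without regard to stage Bmp6 differed by 0.18 between Nlrp5 -/- and Nlrp5 +/-. Within single first indices, SN against NSN moved in Nlrp5 +/+ to -0.17 (Gdf9), 0.35 (Bmp15), -0.33 (Bmp6) and 0.46 and -0.52 (Fgf8). In Nlrp5 +/- it moved to -0.96 and -0.53 (Gdf9), 0.66 (Bmp15) and 0.54 (Kit), and in Nlrp5 -/- to -0.44 (Fgf8). The cause was not tested. The share of genes at least 2-fold apart, 1.95% to 14.8% over the 9 comparisons, was 8.6% to 24.6% with no filter and 0.0612% to 5.4% above a mean of 100 counts.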
